A study of Mus musculus with 16 samples.

Results

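The subject is the transcriptome of lipopolysaccharide (LPS)-treated mouse macrophages that stayed low in side scatter, set against macrophages that received no LPS. In a cell sorter, side scatter reports how granular a cell is. The comparison takes 8 of the 16 libraries of the series, 4 labelled bystanders and 4 labelled untreated, picked by their column names in the count table. RNA was sequenced from iBMDM MyD88-AGF, an immortalised mouse bone-marrow-derived macrophage line whose genotype is given as MyD88-AGF WT in every group. Bystander cells had 10 ng/mL LPS for 6 h and were collected from the low side-scatter gate. Untreated cells had no LPS and ran through the sorter with no gate, after the gated cells had been collected. The other 8 libraries are responders, which had the same LPS and fell in the high side-scatter gate, and an ungated LPS pool. Responders are used below only where a bystander value needs a reference.

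By its title, the series concerns the assembly of myddosomes, in which MyD88 gathers IRAK kinases beneath an engaged Toll-like receptor. LPS is sensed by TLR4 with its partner MD-2 and the co-receptor CD14. The MyD88 branch leads to NF-kappaB and to cytokines such as TNF and interleukin-1 beta. The TRIF branch leads to IRF3 and interferon beta. Secreted type I interferon acts on the same and on neighbouring cells through the receptor IFNAR, the kinases JAK1 and TYK2 and a transcription factor complex that includes STAT2 and IRF9. That complex binds interferon-stimulated response elements (ISRE) in the promoters of antiviral genes. No untreated cells were gated for low scatter, so the effect of LPS, the effect of the gate and the order of collection cannot be told apart. Nor can fewer cells of a kind and less RNA per cell in bulk RNA. Whether replicates were separate cultures is not stated in the labels, so each p-value reflects the spread among these libraries alone, possibly a technical one.

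Bystander libraries held 17061975, 16178278, 25193162 and 23836035 counts, and untreated libraries 18835006, 19032754, 16638528 and 20497100. All 10 macrophage markers listed were detected. Levels are given in CPM, which are counts scaled to an adjusted library size of 1000000. The macrophage markers summed to 4252 to 4273 CPM in bystanders and 3785 to 3833 in untreated cells. Of the 10, 6 were called higher and 2 lower in bystanders, but 3 higher and 5 lower with library totals alone. Their direction thus depended on the scaling, which is described below. Neutrophil markers summed to at most 0.606 CPM with Ly6g, S100a9, Ltf and Retnlg at 0 in both groups, and lymphocyte markers to at most 2.71 CPM with 6 of 9 at 0. The 8 dendritic cell markers summed to 242 to 250.4 CPM in bystanders and 95.2 to 98.4 in untreated cells. Nearly all of it was Clec10a, a lectin gene, and Siglech and Ccr7 were at 0 in both groups. The 2 of these markers with enough counts to be tested were both called higher in bystanders, at log2 folds of 1.31 and 4.02. The rise was therefore not confined to Clec10a. The part of these markers in the results below was not tested. Some libraries stood apart. Fibroblast markers summed to 81.3 CPM in bystander 3 and to between 4 and 34.2 CPM in the other 7 libraries. The 18 neural markers summed to 63.95 to 78.8 CPM in bystanders and 98.7 to 121.4 CPM in untreated cells, with Mobp at 0 in both groups, and their part in the results was not tested either. Of these, Stmn2, a neuronal gene, was at 2.68 and 3.61 CPM in bystanders 3 and 4 and at 3.40 CPM in untreated 1, and at most 0.182 CPM in the other 5. Bystanders 3 and 4 also held more of the transcripts that are highest in responders, so the counts of each gene list against untreated cells were repeated with bystanders 1 and 2 alone.

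Bystanders differed from untreated cells across most of the genes measured. Of 12589 genes tested, 4298 (34.1%) were higher and 4147 (32.9%) lower at an adjusted p under 0.05 in edgeR's quasi-likelihood test. At least 2-fold, 946 (7.51%) were higher and 370 (2.94%) lower. With bystanders 1 and 2 alone, 3860 genes (30%) were higher and 3749 (29.1%) lower, 934 (7.26%) and 398 (3.09%) of them at least 2-fold. Of the 946, 897 were still called higher and 875 were still at least 2-fold higher, and of the 370, 350 were still lower and 312 at least 2-fold lower. The median over all genes was 0.01 on the log2 scale. Scaling by library totals alone in place of the trimmed mean of M-values (TMM) moved that median to -0.18 and the calls to 2491 higher and 6576 lower, with 770 at least 2-fold higher and 642 at least 2-fold lower. Changes smaller than that shift depend on which genes are taken as steady, and groups of genes whose direction depends on it are named as such. Counts of list members called higher or lower against untreated cells by TMM are to be read beside the 34.1% and 32.9% of all genes. Counts by library totals are to be read beside the 2491 higher and 6576 lower of all 12589 genes. Counts against responders are to be read beside 35.3% higher and 34.7% lower of all genes.

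**Figure D1:**
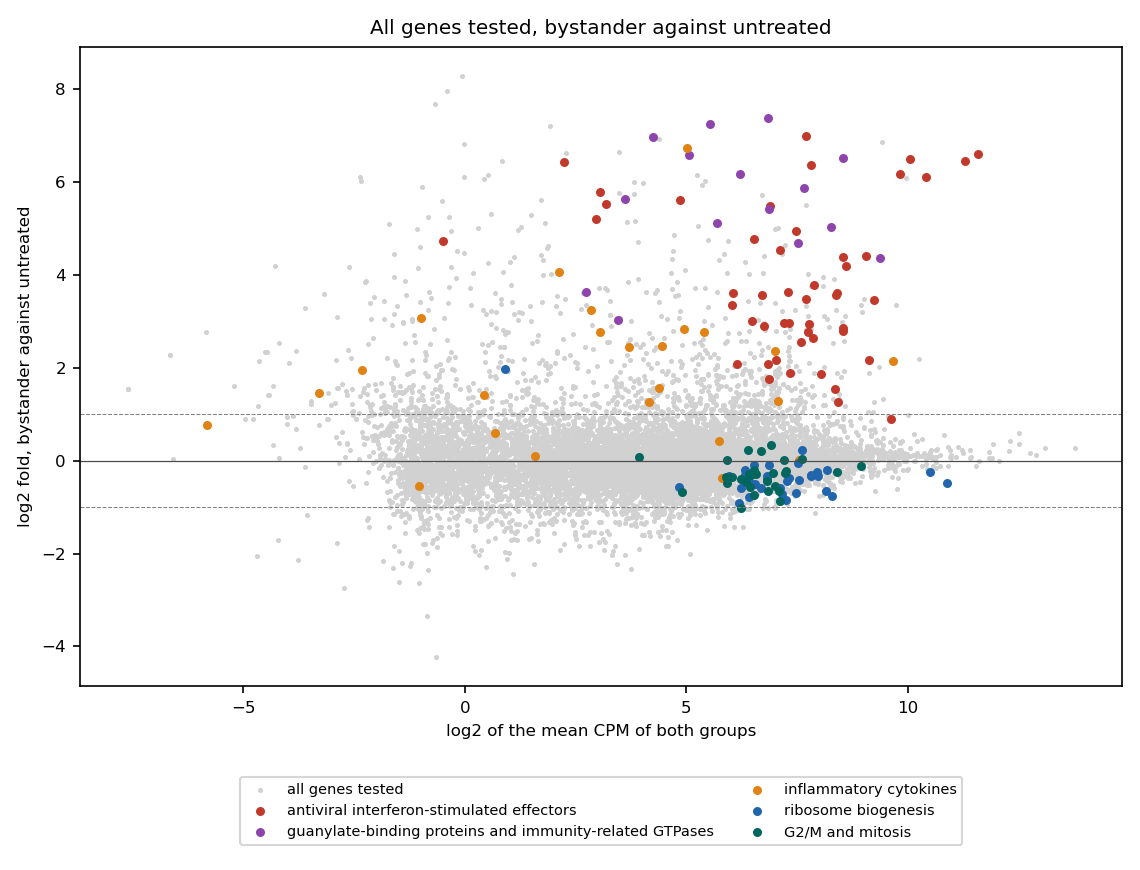
Log2 fold of bystander against untreated (vertical axis) against the log2 of the mean CPM of both groups (horizontal axis) for the 12589 genes tested, with 5 gene lists coloured and dashed lines at 2-fold. Antiviral effectors and interferon-inducible GTPases lie far above 0, while ribosome biogenesis and mitosis genes lie mostly below it.

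Antiviral interferon-stimulated genes were raised in full. All 49 effectors tested rose, 48 of them at least 2-fold, with a median log2 fold of 3.56 beside 0.01 over all genes. Ifit1, which encodes a sensor of viral RNA caps, stood at 23.02, 23.8, 26.5 and 20.4 CPM in the 4 untreated libraries and at 2079, 2124, 2077 and 2093 CPM in the 4 bystander libraries. The groups were far apart and each was tight, for a log2 fold of 6.49 (SE 0.04, edgeR adjusted p = 6.03e-26). Rsad2, the viperin gene, stood at 65.1, 62.1, 70.5 and 56.3 CPM in untreated and 6107, 6119.9, 6070.1 and 6058 CPM in bystander libraries, 96.2-fold higher, and was among the most abundant transcripts of the list. Mx1, an antiviral GTPase gene, rose from 3.30 ± 0.591 to 411 ± 6.32 CPM (SD, n = 4 each), and Cmpk2, which encodes a mitochondrial nucleotide kinase, from 57.2 ± 3.49 to 4940.1 ± 8.42 CPM. Ifit2 rose 68.4-fold, Ifit3 72.0-fold and Isg15, the ubiquitin-like modifier gene, 30.7-fold. Ifit3 and Ifit3b are near-identical copies, so the split of reads between them is uncertain. With bystanders 1 and 2 alone the list had the same counts and a median of 3.56.

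Bystanders did not stand uniformly below responders for these genes. Against responders, 19 of the 49 effectors were higher and 29 lower in bystanders, beside 35.3% and 34.7% of all genes, with a median of -0.27. Ifit1 was at 2093 ± 21.97 CPM in bystanders and 1396 ± 40.0 in responders, and Mx1 at 411 ± 6.32 and 195 ± 2.88, both higher in bystanders at adjusted p = 4.16e-12 and 1.29e-45 in edgeR's test. Isg15 went the other way, at 343 ± 15.1 against 662 ± 14.6 CPM. Ifit3 did not pass that test, with a log2 difference of 0.00 (SE 0.02). Library totals alone moved the median of all genes in this comparison from 0.01 to 0.20 and the counts of the list to 20 higher and 26 lower.

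Guanylate-binding proteins and immunity-related GTPases, which act against vacuolar pathogens, rose most. All 15 tested rose at least 2-fold, with a median log2 fold of 5.64 and 5.65 with bystanders 1 and 2 alone. Iigp1 had the largest fold of any gene named by rule: it was at 1.31, 2.11, 1.13 and 0.918 CPM in untreated and 229, 233, 224 and 223 CPM in bystander libraries, a log2 fold of 7.37 (SE 0.06, edgeR adjusted p = 2.20e-63). Gbp2 rose from 8.10 ± 1.32 to 733 ± 15.3 CPM, Gbp4 94.9-fold, Gbp5 72.0-fold and Gbp7 58.1-fold. Irgm1 and Igtp, whose proteins regulate the other GTPases, rose 20.7-fold and 32.3-fold. Tgtp1 and Tgtp2, near-identical copies that may share reads, rose 125-fold and 152-fold. Several stood higher in bystanders than in responders: Iigp1 was at 47.3 ± 2.195 CPM in responders, Tgtp2 at 27.7 ± 2.003 and Igtp at 269 ± 5.08, each lower than in bystanders at adjusted p of 3.56e-50, 2.07e-41 and 5.41e-48 in edgeR's test. Gbp5 was at 145 ± 6.96 CPM in bystanders and 467 ± 8.27 in responders. Of the list, 9 were higher and 4 lower than in responders.

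Other genes with the highest folds by the rule included Batf2, a transcription factor gene, at 41.7 ± 4.50 CPM in bystanders and 0.338 ± 0.116 in untreated cells, Tnfsf10, which encodes the death ligand TRAIL, at 63.7 ± 1.61 and 0.598 ± 0.164 CPM, and Serpina3f, a serine protease inhibitor gene, at 22.1 ± 1.29 and 0.217 ± 0.0912 CPM. Ifit1bl1, of the Ifit family, rose 116-fold and Gm12185 70.3-fold. Some genes were barely counted in untreated cells, so their reads are given in place of a fold. BC023105 had 1, 1, 1 and 1 reads in the untreated libraries and 120, 146, 193 and 173 in the bystander libraries. Gm4951 had 0, 1, 2 and 5 and 142, 173, 245 and 250 reads, and Ms4a4c 1, 1, 5 and 2 and 156, 161, 239 and 230.

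Genes of interferon signalling and nucleic acid sensing mostly rose, at 23 of 29 higher and 5 lower (median log2 fold 1.49). Stat2 and Irf9, whose proteins belong to the interferon-activated complex, rose 15.5-fold and 3.62-fold. Irf7, the factor that amplifies interferon production, rose from 85.3 ± 3.58 to 952 ± 12.8 CPM. The receptor side moved little, with Ifnar2 1.28-fold higher and Ifnar1 at a log2 fold of 0.08 (adjusted p = 0.0211, and 0.167 with bystanders 1 and 2 alone, both by edgeR), which library totals alone turned to -0.12. Sensors rose too. Ddx58, the RIG-I gene, rose 8.57-fold, Cgas, which encodes the DNA sensor, 2.39-fold and Sting1, its downstream adaptor gene, 2.81-fold. Ticam2, which encodes the TRAM adaptor of the TRIF branch, fell 2.37-fold, from 20.5 ± 1.20 to 8.61 ± 0.600 CPM. Ifnb1 itself was barely detected, with 0, 0, 2 and 0 reads in untreated and 0, 1, 6 and 0 in bystander libraries, and did not pass edgeR's test (adjusted p = 0.147). Of the 7 bystander reads, 6 came from bystander 3, without which the log2 fold was -0.31 (adjusted p = 0.850), and without untreated 3, which held both untreated reads, the adjusted p was 0.0140.

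Irf1, a transcription factor gene induced by interferons, was at 31.2, 30.2, 29.3 and 33.0 CPM in untreated and 419, 423, 416 and 420.1 CPM in bystander libraries. All 4 bystander libraries lay far above every untreated one and also above the responders, which were at 157 ± 4.62 CPM (log2 difference of bystanders from responders 1.42, SE 0.02, edgeR adjusted p = 3.04e-51). Irf2, a related factor gene that can oppose it, rose 5.44-fold to 195 ± 4.26 CPM and stood at 49.3 ± 0.889 CPM in responders. Irf8, a factor gene of myeloid cells, rose 4.40-fold.

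**Figure D2:**
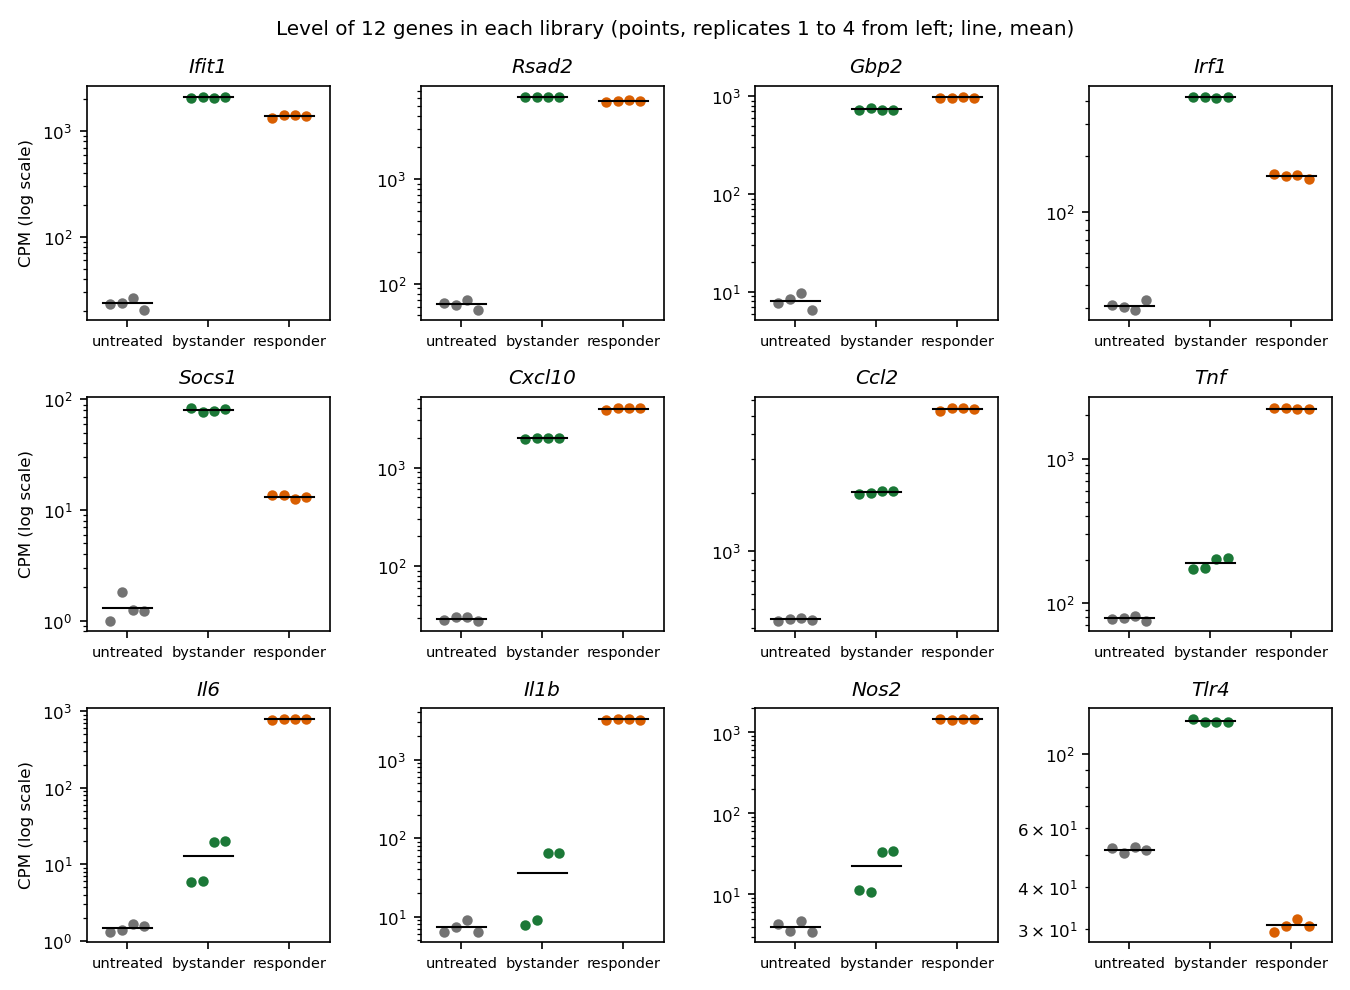
Level of 12 genes in each of the 4 untreated, 4 bystander and 4 responder libraries (CPM, log axis, each point a library, lines the group means). Ifit1, Irf1, Socs1 and Tlr4 are highest in bystanders, Cxcl10, Ccl2 and Tnf lie between untreated cells and responders, and Il6, Il1b and Nos2 are higher in bystanders 3 and 4 than in bystanders 1 and 2.

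The promoters of some of these genes show the element that the interferon-activated complex binds. The stretches below, read from the RefSeq promoter table of GRCm38.p6, come from the 250 bases before the start of 7 genes named above or below, printed 5′ to 3′ on the gene's own strand. Capitals mark each match to the ISRE core (GAAA, any 2 bases, GAAA) on either strand, and in Irf1 the match to the GAS element (TTC, any 3 bases, GAA). They were chosen among genes that rose in all 4 bystander libraries because they hold one of these matches. Not every such gene does: the promoter of Tlr3, described below, holds neither. Ifit1 comes from chr19:34640740-34640858 (plus strand), Rsad2 from chr12:26456518-26456617 (minus strand), Gbp2 from chr3:142620559-142620658 (plus strand), Tgtp1 from chr11:48992269-48992368 (minus strand), Cxcl10 from chr5:92349048-92349139 (minus strand), Socs1 from chr16:10785559-10785664 (minus strand) and Irf1 from chr11:53769879-53769977 (plus strand).
Ifit1: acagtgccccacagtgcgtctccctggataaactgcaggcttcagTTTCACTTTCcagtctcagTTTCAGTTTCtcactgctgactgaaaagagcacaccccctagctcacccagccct
Rsad2: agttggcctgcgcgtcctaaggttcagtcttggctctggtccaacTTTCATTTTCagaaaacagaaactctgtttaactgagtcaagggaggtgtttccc
Gbp2: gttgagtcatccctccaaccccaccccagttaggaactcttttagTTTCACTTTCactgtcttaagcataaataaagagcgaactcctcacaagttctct
Tgtp1: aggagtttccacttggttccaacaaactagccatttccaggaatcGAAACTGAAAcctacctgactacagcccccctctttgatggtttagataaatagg
Cxcl10: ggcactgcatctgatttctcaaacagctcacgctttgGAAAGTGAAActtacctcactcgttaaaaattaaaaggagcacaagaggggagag
Socs1: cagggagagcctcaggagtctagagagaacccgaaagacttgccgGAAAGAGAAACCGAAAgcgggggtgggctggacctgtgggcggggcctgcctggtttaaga
Irf1: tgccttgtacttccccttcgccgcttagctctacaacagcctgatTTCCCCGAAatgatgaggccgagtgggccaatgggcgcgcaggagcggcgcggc

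Ifit1 holds 2 ISRE cores, at positions -104 to -95 and -85 to -76 counted back from the start, and Socs1 holds 2 that overlap, at -83 to -74 and -77 to -68. Tgtp1 also holds a GAS match, at -88 to -80, left in lower case. Cxcl10 holds 3 matches to an NF-kappaB site, of which those at -104 to -95 and -103 to -94 overlap, Irf1 holds 1 at -13 to -4 and Tlr3 1 at -211 to -202. The core was present in 90 of the 692 genes raised at least 2-fold that had an entry in the table, or 13%, beside 2.98% of the 9701 tested genes with an entry and 3.04% of all 27025 promoters. Among genes raised at least 4-fold the share was 22.1%, among the antiviral effectors 42.1% (16 of 38), and among genes lowered at least 2-fold 1.48% (4 of 270). The GAS element was in 10.4% of the genes raised at least 2-fold, 5.56% of those lowered and 5.99% of the tested genes, and 7.18% of all promoters hold it. An NF-kappaB site was in 11.4%, 8.52% and 8.67% in the same order and in 7.01% of all promoters. Of the 38 antiviral promoters, 9 held an NF-kappaB site. Of 15 inflammatory cytokine promoters, 1 held the ISRE core and 6 an NF-kappaB site. With bystanders 1 and 2 alone, 88 of the 679 genes raised at least 2-fold held the core. A match describes the sequence, not binding, and these shares were not tested.

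Antigen presentation genes rose as well. Of 22 genes of MHC class I presentation and the immunoproteasome, 17 rose, 12 at least 2-fold, and 3 fell, with a median of 1.32. Tap1, a subunit gene of the peptide transporter, rose from 25.1 ± 1.25 to 403 ± 8.97 CPM, and Nlrc5, the transactivator gene of class I genes, rose 10.5-fold. Tapbp, which encodes tapasin, rose 4.02-fold and the immunoproteasome subunit gene Psmb9 8.05-fold. The light chain gene B2m rose 1.97-fold.

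The LPS receptor pathway changed gene by gene. Tlr4 stood at 52.4, 50.5, 52.9 and 51.6 CPM in untreated and 128, 125, 125 and 125 CPM in bystander libraries, 2.42-fold higher (log2 fold 1.27, SE 0.03, edgeR adjusted p = 5.43e-41). Responders had 30.7 ± 1.09 CPM, below untreated cells, so the order of the 3 groups was bystander, untreated, responder with no overlap. Ly96, the MD-2 gene, rose from 2.86 ± 0.224 to 6.30 ± 0.274 CPM, and Cd14 rose 1.497-fold. Cd180, which encodes the TLR4 homologue RP105, rose 2.197-fold. Among the components of the myddosome, Myd88 rose from 111 ± 1.56 to 255 ± 1.497 CPM and Irak2 2.71-fold. Irak4 did not pass edgeR's test, at a log2 fold of -0.08 (adjusted p = 0.133), and was lower with library totals alone (-0.27). Irak3, the inhibitory kinase gene, fell from 12.6 ± 0.432 to 10.3 ± 1.43 CPM, a call that bystanders 3 and 4 alone did not reach (edgeR adjusted p = 0.151). Peli1, a ubiquitin ligase gene, rose 5.93-fold, and Traf3, a signalling adaptor gene, fell 1.63-fold. In all 18 of 27 members rose and 3 fell, with a median of 0.18 beside 0.01 over all genes. With library totals alone 11 rose, 11 fell and the median was -0.01, beside -0.18 over all genes. The sign of the list median thus depended on the scaling, but the median lay above that of all genes under both.

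Of the other Toll-like receptors and their partners, 8 of 12 tested rose and 3 fell, with the same counts under library totals alone. Tlr3, the receptor gene for double-stranded RNA, went from 11.2, 11.1, 13.1 and 10.7 CPM in untreated to 285.2, 293, 279.7 and 287 CPM in bystander libraries, 24.9-fold. Tlr7 rose 2.48-fold, Tlr8 8.73-fold and Tlr9 2.29-fold, all genes of endosomal receptors for nucleic acids. Each of these 4 stood above responders too, with Tlr3 at 200.2 ± 3.09 CPM there (edgeR adjusted p = 2.23e-27). The surface receptor gene Tlr2 fell, from 88.5 ± 4.30 to 66.9 ± 1.42 CPM, while responders held 251.1 ± 6.07 CPM.

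Some cytokine genes were raised in all 4 bystander libraries and others in bystanders 3 and 4. Il1b stood at 6.43, 7.38, 9.05 and 6.43 CPM in untreated and 7.79, 9.03, 64.1 and 65.1 CPM in bystander libraries. Bystanders 1 and 2 thus overlapped with untreated cells, and bystanders 3 and 4 were far above them, all well under the 3265 ± 76.9 CPM of responders. The adjusted p was 0.00371 over all 4 bystander libraries and 0.171 with bystanders 1 and 2 alone (log2 fold 0.21), both by edgeR. Csf3, the granulocyte growth factor gene, had the same pattern, at 2.54, 2.43, 2.57 and 2.09 CPM in untreated and 2.35, 2.61, 25.6 and 26.5 CPM in bystander libraries, as had Il1a, the interleukin-1 alpha gene, at 4.75, 5.15, 37.8 and 38.7 CPM in bystander libraries beside 4.46 ± 0.579 in untreated cells. In numbers, 18 of 24 cytokine genes rose and 1 fell over all 4 bystanders, and 13 rose and 1 fell with bystanders 1 and 2 alone. The median went from 1.75 to 1.07. The libraries that held more of these transcripts were also the bystander libraries with Stmn2, and any part of that in the difference was not tested.

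Other cytokine genes passed the test in either set. Tnf was at 78.2, 79.3, 81.7 and 75.4 CPM in untreated and 171, 175, 203 and 205 CPM in bystander libraries, a log2 fold of 1.27 (SE 0.06) and of 1.14 with bystanders 1 and 2 alone. Il6 was at 1.31, 1.39, 1.65 and 1.59 and 5.90, 6.00, 19.7 and 20.2 CPM in the same order. Every bystander library exceeded every untreated one for both genes, although Il6 was 9.50-fold higher over 4 libraries and 3.99-fold with bystanders 1 and 2 alone, beside 787 ± 19.7 CPM in responders. Il1rn, which encodes the interleukin-1 receptor antagonist, rose from 301 ± 4.35 to 1323 ± 28.8 CPM, so that its transcript far outnumbered that of Il1b in CPM not scaled by length. Il15 and Il18 rose 6.84-fold and 7.15-fold, and Csf1, the macrophage growth factor gene, 5.09-fold. Csf1 stood slightly higher in bystanders than in responders (213 ± 3.82 against 193 ± 3.44 CPM, edgeR adjusted p = 1.60e-06). Against responders 20 cytokine genes were lower in bystanders and 4 were higher, with a median of -2.67.

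Of 16 chemokine genes 14 rose over all 4 bystander libraries and 12 with bystanders 1 and 2 alone, and the rest did not pass edgeR's test. Cxcl10, which attracts T cells and is induced by interferon, went from 28.2, 30.2, 30.6 and 27.9 CPM in untreated to 1951, 1971, 1978 and 1995 CPM in bystander libraries, 67.6-fold, and to 3966 ± 81.8 CPM in responders. Ccl12 and Ccl2, genes of monocyte attractants, rose 45.04-fold and 4.53-fold. Ccl4 rose from 82.4 ± 3.96 to 652 ± 12.3 CPM and Ccl7 from 99.2 ± 2.73 to 905 ± 19.5 CPM. Ccl5 was split as Il1b was, at 5.71, 4.68, 5.35 and 4.97 CPM in untreated and 6.30, 6.36, 24.3 and 25.3 CPM in bystander libraries, and with bystanders 1 and 2 alone its log2 fold was 0.29 (edgeR adjusted p = 0.0352). All 16 were lower in bystanders than in responders, with a median of -2.49.

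**Figure D3:**
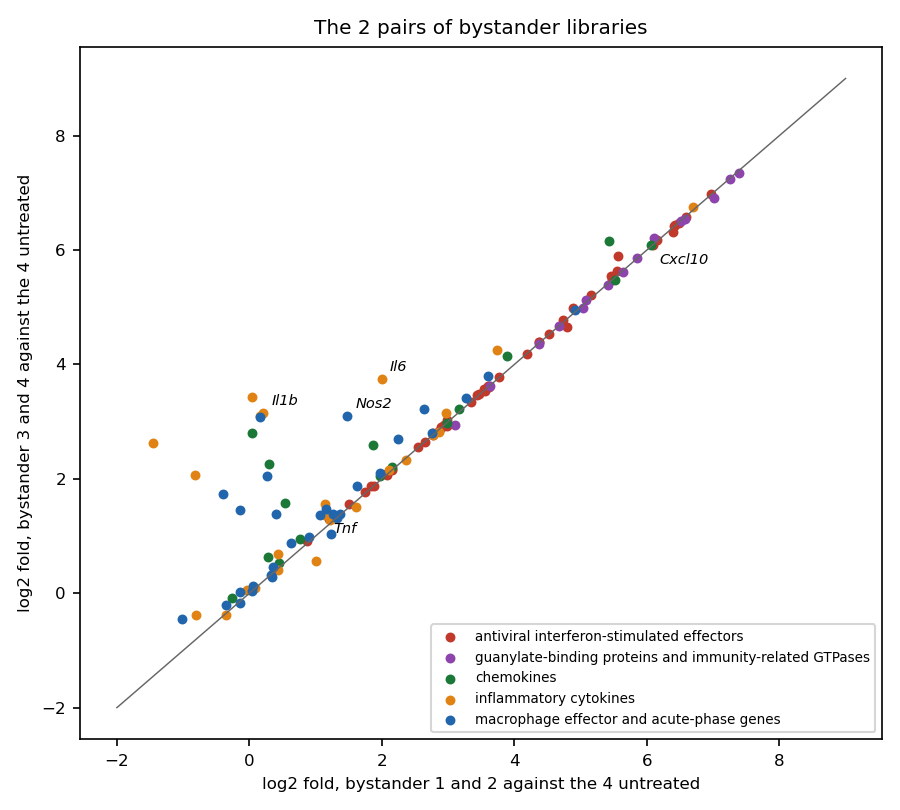
Log2 fold against the 4 untreated libraries for bystanders 1 and 2 (horizontal axis) and for bystanders 3 and 4 (vertical axis), each point a gene of 5 lists, with the line of equal values. Both axes share the untreated libraries. Antiviral effectors, GTPases and Cxcl10 lie on the line, while Il1b, Il6 and Nos2 lie above it.

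Effector genes of activated macrophages rose for 24 of 31 (20 with bystanders 1 and 2 alone). Nos2, the inducible nitric oxide synthase gene, was at 4.30, 3.55, 4.68 and 3.46 CPM in untreated and 11.3, 10.8, 33.2 and 34.8 CPM in bystander libraries, with log2 folds of 2.61 over all 4 and 1.47 with bystanders 1 and 2 alone, and at 1457 ± 24.6 CPM in responders. Acod1, whose enzyme makes itaconate, rose 10.2-fold, and Gch1, which encodes the first enzyme of tetrahydrobiopterin synthesis, 2.60-fold. Hcar2, a receptor gene for hydroxybutyrate, rose 6.90-fold. Plau, the urokinase gene, rose from 397 ± 3.76 to 988 ± 5.42 CPM although responders, at 271 ± 7.92 CPM, were below untreated cells.

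The NF-kappaB subunits and feedback regulators moved both ways, with 20 of 29 higher, 6 lower and a median of 0.30. With bystanders 1 and 2 alone the counts were 17 and 8, and with library totals alone 14 and 7. Nfkbia, which encodes the inhibitor that NF-kappaB induces against itself, was at 53.6, 52.2, 51.2 and 50.7 CPM in untreated and 79.0, 75.5, 91.2 and 87.4 CPM in bystander libraries, 1.62-fold higher, and at 556 ± 7.97 CPM in responders. Tnfaip3, the gene of the ubiquitin-editing enzyme A20, rose 1.75-fold. Zfp36, whose protein destabilises cytokine mRNAs, rose 6.87-fold, and Icam1, an adhesion molecule gene, 1.90-fold. In the other direction, Tnip1, the gene of an A20 partner, fell from 107 ± 2.38 to 67.9 ± 4.55 CPM while responders held 440.3 ± 6.47 CPM. Nfkbie fell 1.78-fold, and the subunit genes Relb and Nfkb2 fell 1.41-fold and 1.22-fold. These 4 were also lower with bystanders 1 and 2 alone and with library totals alone. Of the list, 26 members were lower in bystanders than in responders.

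Of 33 genes of signalling suppressors 22 rose and 7 fell, or 19 and 10 with library totals alone, with a median of 0.62. Socs1, which encodes an inhibitor of JAK kinases, was at 0.997, 1.80, 1.23 and 1.21 CPM in untreated and 84.3, 76.5, 78.4 and 81.6 CPM in bystander libraries, a log2 fold of 5.93 (SE 0.09, edgeR adjusted p = 4.59e-55). Responders held 13.2 ± 0.461 CPM, so every bystander library was above every responder library. Socs3, the suppressor gene of interleukin-6 signalling, had the reverse order of the LPS groups, at 2.97 ± 0.421 CPM in untreated cells, 37.2 ± 3.58 in bystanders and 281 ± 7.34 in responders. Usp18, which encodes a negative regulator of IFNAR, rose 20.9-fold, and Dusp1, a MAP kinase phosphatase gene, 2.80-fold.

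G-protein-coupled receptors and their regulators had 17 higher and 13 lower of 37, not far from the 34.1% and 32.9% of all genes, and their median of 0.11 turned to -0.08 under library totals alone. Single members moved further. Rgs2, which encodes a regulator that ends Gq signalling, was at 42.2, 43.8, 44.3 and 46.7 CPM in untreated and 381, 378, 392.4 and 381 CPM in bystander libraries, 8.65-fold higher, while responders were at 47.3 ± 1.67 CPM, close to untreated cells. Ccrl2, a chemerin receptor gene, rose from 2.25 ± 0.325 to 74.2 ± 3.65 CPM and C3ar1, the complement C3a receptor gene, 3.47-fold. P2ry13, an ADP receptor gene, rose 6.25-fold to 32.1 ± 0.950 CPM beside 6.57 ± 0.349 CPM in responders. Among the members that fell, named after their values were seen, Cxcr4, a chemokine receptor gene, was at 3.59 ± 0.712 CPM in untreated cells and 0.649 ± 0.183 in bystanders, Gpr183, an oxysterol receptor gene, at 47.2 ± 1.57 and 20.9 ± 1.73, and S1pr1, a sphingosine phosphate receptor gene, at 9.05 ± 0.899 and 3.697 ± 0.603 CPM.

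Identity and lineage genes of macrophages changed unevenly. Of 34 tested, 23 rose and 5 fell, or 17 and 10 with library totals alone. Cd274, the checkpoint ligand gene PD-L1, rose from 9.60 ± 0.878 to 205 ± 2.22 CPM, and Fcgr1, the high-affinity Fc receptor gene, 7.13-fold. Csf1r, the receptor gene for macrophage colony-stimulating factor, fell 1.28-fold from a high level of 894 ± 11.6 CPM. Cebpa, a factor gene of myeloid differentiation, was at 18.8, 19.3, 20.8 and 20.2 CPM in untreated and 5.44, 5.09, 4.11 and 4.84 CPM in bystander libraries, 4.10-fold lower, and at 4.07 ± 0.599 CPM in responders.

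Genes of inflammasomes and cell death rose for 29 and fell for 2 of 32, with a median of 0.90. Casp4, which encodes the caspase that binds cytosolic LPS, rose from 7.74 ± 0.285 to 94.99 ± 1.81 CPM, and Mlkl, the effector gene of necroptosis, 3.94-fold. Casp1 rose 2.93-fold, Gsdmd, which encodes the pore-forming gasdermin D, 1.84-fold and Nlrp3 1.605-fold. Immediate-early and AP-1 factor genes rose for 15 and fell for 3 of 25. Atf3, a stress-induced repressor gene, rose 3.68-fold and Klf6 2.92-fold.

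Transcripts of growth and division were lower in bystanders. Of 33 ribosome biogenesis genes 31 fell, with a median of -0.39, and the same count fell with bystanders 1 and 2 alone and with library totals alone. Nolc1, which encodes a nucleolar scaffold, was at 393, 394, 386 and 403 CPM in untreated and 231, 237, 232 and 227 CPM in bystander libraries, Nop56, of the box C/D complex, fell 1.58-fold and Dkc1, the pseudouridine synthase gene, 1.81-fold. Myc, the gene of a growth-promoting transcription factor and part of that list, was one of the 2 members that rose, from 0.760 ± 0.229 to 2.97 ± 0.181 CPM. Of 30 G2/M and mitosis genes 23 fell and 3 rose (median -0.30), and of 33 G1/S and replication genes 27 fell and 3 rose (median -0.32). Anln, whose protein acts in cytokinesis, fell 2.03-fold, Cdc20, the activator gene of the anaphase-promoting complex, 1.82-fold and the spindle motor genes Kif23 and Kif11 1.66-fold and 1.25-fold. The G1/S members with the smallest p by the naming rule rose instead: the cyclin genes Ccnd1 and Ccnd2 by 1.95-fold and 1.75-fold and Mcm10 by 1.69-fold. Cell cycle genes were lower still in responders, where 29 of 30 G2/M genes were below bystanders, Kif11 at 34.9 ± 1.91 against 79.0 ± 0.819 CPM. Among p53 targets 6 rose and 10 fell of 20, beside 34.1% and 32.9% of all genes. Of single members, Cdkn1a, the cell cycle inhibitor gene, rose 1.89-fold and Plk2 2.69-fold.

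Several housekeeping lists took their direction from the scaling. Ribosomal protein genes rose for 35 of 37 by a median of 0.12, but with library totals alone 27 fell and 1 rose, and Rpl3, 1.13-fold higher by TMM, had a log2 fold of -0.02. Of 31 nuclear genes of the respiratory chain, 20 were higher by TMM and 23 were lower by totals. Glycolysis and hypoxia genes had 14 higher and 5 lower of 25, and 6 and 15 by totals. NRF2 targets had 11 and 5 of 20, and 5 and 12 by totals. By totals 2491 of all 12589 genes were higher and 6576 lower. Single members moved beyond the shift under both scalings: Hk1, a hexokinase gene, rose 1.84-fold, Pfkp, a phosphofructokinase gene, 1.54-fold and Hmox1, the heme oxygenase gene, 1.36-fold, whereas Osgin1, an NRF2 target gene, fell 2.30-fold.

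Lysosome genes rose for 29 and fell for 3 of 37 (18 and 11 by totals), with Ctsc, a peptidase gene, 2.14-fold and Npc2, the cholesterol carrier gene, 1.65-fold higher. Actin and adhesion genes rose for 28 and fell for 2 of 36 (18 and 10 by totals). Zyx and Vcl, genes of focal adhesion proteins, rose 3.35-fold and 2.66-fold and Actg1 1.49-fold. Cholesterol synthesis and uptake genes rose for 17 and fell for 3 of 23 (13 and 5 by totals), including the synthesis genes Cyp51 and Fdps at 1.37-fold and 1.33-fold. On the efflux side Abcg1, a sterol exporter gene, rose 1.57-fold, and Nr1h3, the LXR-alpha gene, fell 1.45-fold. Of that list 4 rose and 6 fell of 11, beside 34.1% and 32.9% of all genes.

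Heat shock genes fell for 11 and rose for 2 of 19, with a small median of -0.10. By totals 16 fell and 2 rose, with a median of -0.29 beside -0.18 over all genes. Hsph1, a co-chaperone gene, fell 1.41-fold and Hspd1, the mitochondrial chaperonin gene, 1.29-fold. Genes of the unfolded protein response and the integrated stress response had 11 higher and 10 lower of 26 (6 and 17 by totals), near the 34.1% and 32.9% of all genes by TMM, with Ddit4, an mTOR inhibitor gene, 2.15-fold lower. Of 10 clustered histone genes, whose near-identical copies may share reads, 3 rose by TMM, whereas by totals 1 rose and 2 fell.

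**Figure D4:**
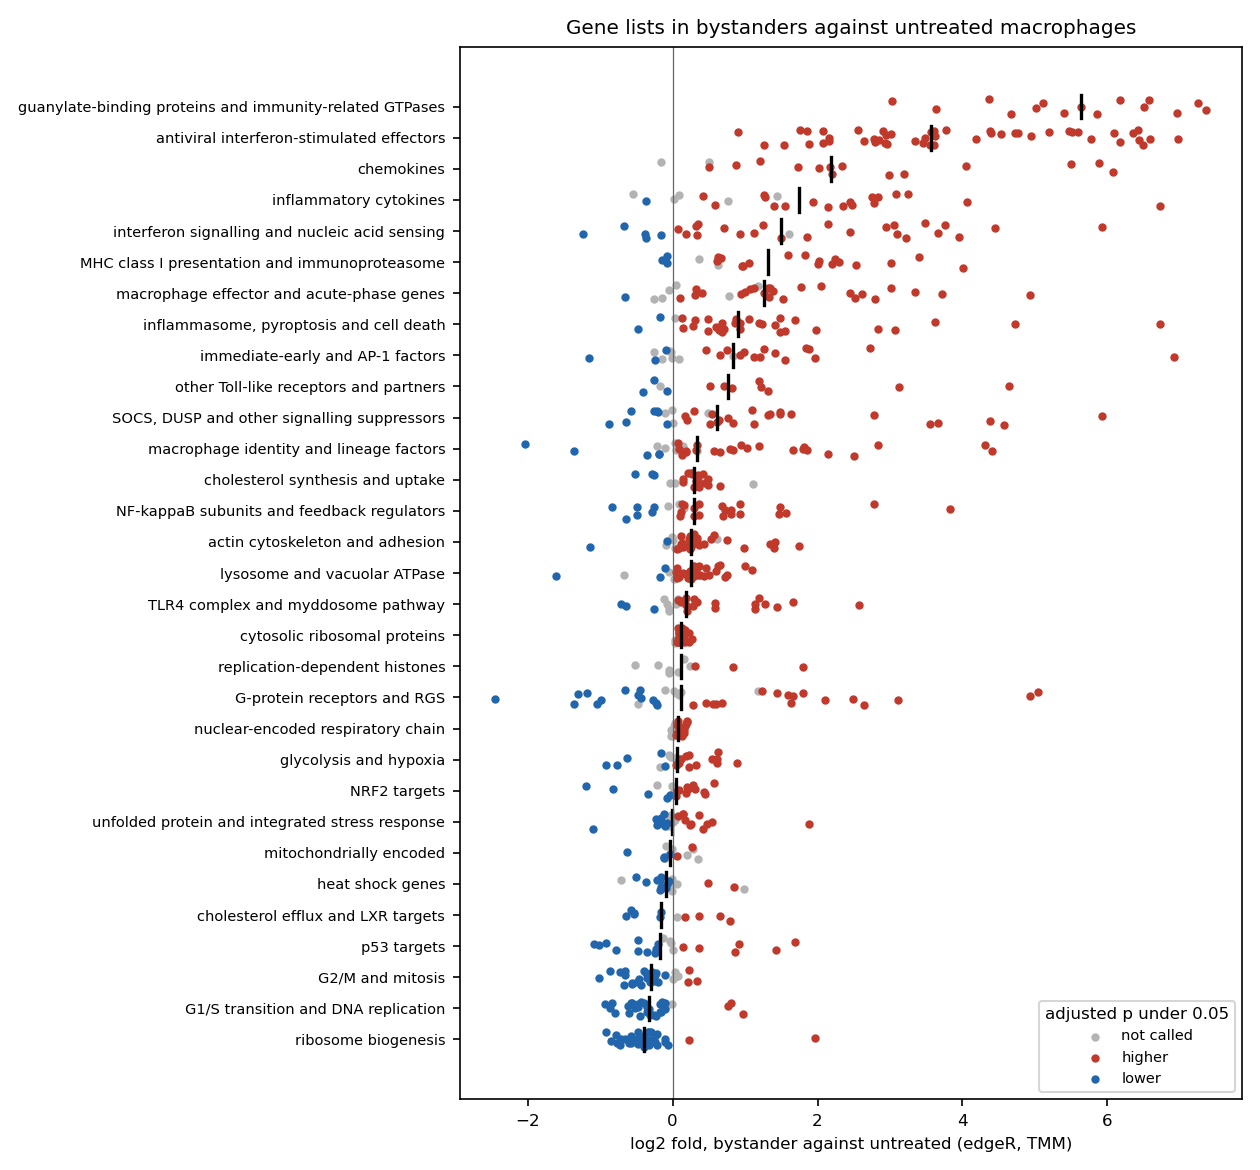
Log2 fold of bystander against untreated for every tested member of 31 gene lists (points; red higher, blue lower and grey not called at an adjusted p under 0.05), with the median of each list as a black bar. Lists run from ribosome biogenesis at the bottom, with a median of -0.39, to the interferon-inducible GTPases at the top, with a median of 5.64.

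Among genes with the lowest folds by the rule, changes were smaller than at the top. Angptl4, which encodes an inhibitor of lipoprotein lipase, was at 22.9, 21.7, 21.8 and 23.002 CPM in untreated and 5.21, 3.94, 3.88 and 4.67 CPM in bystander libraries, a log2 fold of -2.34 (SE 0.09, edgeR adjusted p = 1.17e-31). Slc29a2, a nucleoside transporter gene, fell 4.66-fold, Trim47, a ubiquitin ligase gene, 4.11-fold, Ankle1, an endonuclease gene, 4.04-fold and Lpar5, a lysophosphatidic acid receptor gene, 3.78-fold. Acer2, an alkaline ceramidase gene, fell 3.77-fold, Ppargc1b, which encodes a coactivator of mitochondrial genes, 3.60-fold, Kcnj2, an inward rectifier potassium channel gene, 3.55-fold and Mnt, which encodes an antagonist of Myc, 3.28-fold. Beside Cebpa, given above, the other 10, which are Zfp395, Tacc2, Pdxp, Fam78a, Ccdc116, Tlcd1, Nol4l, Mast1, Rcor2 and Amigo1, fell 3.22-fold to 3.85-fold. No bystander library overlapped with an untreated one for any of these 20 genes, which the rule itself required. Some were also low in responders, such as Angptl4 at 3.64 ± 0.421 CPM, while Nol4l was at 3.71 ± 0.295 CPM in bystanders and 15.2 ± 0.925 in responders, and Mnt at 12.97 ± 0.773 and 32.9 ± 1.73, both lower in bystanders at edgeR adjusted p of 7.14e-27 and 4.20e-30.

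The 13 mitochondrially encoded genes took 1.89%, 1.91%, 1.84% and 1.84% of the counts in the bystander libraries and 1.98%, 1.97%, 1.96% and 1.98% in the untreated ones. The groups did not overlap, and the mean difference of -0.10 percentage points had a two-sided exact permutation p of 0.0286, the smallest that 4 against 4 libraries can give. That share is taken over library totals. TMM factors of 1.02 in each bystander and 1.17 in each untreated library would turn the difference the other way, so its direction depends on the scaling. By gene 2 of 13 rose and 4 fell by TMM, beside 34.1% and 32.9% of all genes, with COX1 1.20-fold higher and CYTB 1.08-fold lower. By totals 1 rose and 7 fell, with COX1 1.05-fold higher and CYTB 1.24-fold lower.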

How the data were processed

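The authors deposited 1 table of raw counts per gene for 16 libraries. The tools named in the submitters' processing notes are HISAT2 2.2.2, featureCounts 2.1.1, cutadapt 3.7 and fastp 1.1.0, and the build is GRCm38/mm10. Annotation, strandedness and the handling of reads with several matches were not given in the sources used here. Near-identical copies and overlapping genes may therefore share reads. Of 27179 gene IDs 25275 matched a symbol, and the other 1904 held 0.399% of the counts. Genes were filtered with filterByExpr, leaving 12589, scaled by TMM and fitted on all 16 libraries in 4 groups with edgeR 4.0.16 (R 4.3.3, quasi-likelihood F-test). P-values were adjusted by Benjamini-Hochberg over all genes tested, with a threshold of 0.05. CPM are counts scaled to 1000000 of the TMM-adjusted library size, and ± is the SD over libraries. Totals ranged from 15287344 to 25193162 counts. In each pair of bystander or untreated replicates the counts differed by more than sampling noise. Separate libraries of 1 culture could differ so too, so this does not show that the replicates were independent. Each library was treated as 1 replicate.

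Alternatives were library totals alone, DESeq2 1.42.0, no low-count filter, a fit of the 8 libraries alone, a replicate block, each library left out, and bystanders 1 and 2 alone. Bystanders 3 and 4 alone, and leaving out bystanders 3 and 4 and untreated 1, the libraries with most Stmn2, were chosen after seeing the data. On simulated counts 95% of 100 genes with a log2 change of 1 were called, and 69% of 100 with a change of 0.25, and 4.65% of the calls were false. Only these genes of 12203 were changed there, as many up as down. In the data most genes were called and the choice of scaling shifted the folds, so these rates need not carry over.

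The members and gene lists were chosen with earlier results of these data known, so list counts are descriptions. Named genes were the 20 highest and 20 lowest folds with at least 5 CPM, no overlap and the same call with bystanders 1 and 2 alone, the 3 members of each list with the smallest p and at least 1 CPM, and 30 fixed genes. Some of these are not reported here. Genes named outside this rule were chosen after their values were seen: Acod1, B2m, Casp1, Ccl4, Ccl7, Ccr7, Cd180, Cgas, Clec10a, Csf1r, Csf3, Cxcr4, Gpr183, Gsdmd, Ifnar1, Ifnar2, Il15, Il18, Il1a, Irf2, Ltf, Ly6g, Mobp, Myc, Nfkb2, Nfkbie, Nlrp3, P2ry13, Psmb9, Relb, Retnlg, S100a9, S1pr1, Siglech, Sting1, Stmn2, Ticam2, Tlr2, Tlr9, Tnip1 and Traf3.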

Additional observations from a re-analysis of the deposited data

Results flagged for a closer look

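In 13 of 352 groups of 4 libraries checked, 1 library lay apart from the other 3 by more than Dixon's 95% limit. Chance flags about 1 in 20 groups, which comes to 17.6 here.

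Among untreated libraries, Ccdc116 was at 14.3 CPM in untreated 3 (16.8 to 17.3 in the others), Osgin1 at 41.5 CPM in untreated 3 (38.9 to 39.3), and Ifnb1 at 0.103 CPM in untreated 3 (0 in the others). Fam78a was at 39.3 CPM in untreated 2 (36.98 to 37.28), Gpr183 at 49.5 CPM in untreated 2 (46.4 in the others), and Il1rn at 294 CPM in untreated 2 (303 in the others). Gch1 was at 70.7 CPM in untreated 1 (73.7 to 73.8) and Stmn2 at 3.40 CPM in untreated 1 (0.0418 to 0.103).

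Among bystander libraries, Ccnd1 was at 1017 CPM in bystander 3 (991 to 994 in the others), Hcar2 at 43.7 CPM in bystander 1 (45.99 to 46.24), and Tlr4 at 127.7 CPM in bystander 1 (124.7 to 124.9). Tgtp2 was at 90.3 CPM in bystander 4 (93.4 to 93.9) and Myc at 2.71 CPM in bystander 4 (3.03 to 3.09). Apart from Stmn2 and the few reads of Ifnb1, these gaps were small beside the difference between the groups.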

How the results depend on the processing

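With library totals alone 2491 genes were higher, 6576 lower and 642 at least 2-fold lower, and the median of all genes was -0.18. The share of calls that were higher went from 50.9% to 27.5%. Under that scaling Cox4i1 turned to -0.0278 and Rpl3 to -0.0189 against untreated cells, and against responders Hk1 turned to 0.0336, Keap1 to 0.0569 and Rpl13 to 0.0442, because it shifts every log2 fold of a comparison by about the same amount. The mitochondrial share differed by -0.0685 percentage points with bystanders 1 and 2 alone (exact permutation p = 0.133, the smallest that 2 against 4 libraries can give), and by -0.112 to -0.0878 when 1 library was left out (exact permutation p = 0.0571, the smallest that 3 against 4 can give). Motif shares among genes raised at least 4-fold were 22.1% for the ISRE core, 13.71% for the GAS element and 14.05% for the NF-kappaB site. Counts at least 2-fold higher were 770 with library totals alone, 867 with the 8 libraries fitted alone, 957 with DESeq2 and 1144 with no low-count filter. Of the 143 reported genes named by the rule, 132 kept their direction and call against untreated cells under every alternative run, and the exceptions were Cox4i1, H2bc21, H2bc4, Ifnb1, Il1b, Irak3, Irak4, Ndufa9, Ndufb9, Rpl13 and Rpl3. The rule had already required the same call with bystanders 1 and 2 alone for the highest and lowest folds. It took list members by the smallest p, so this count does not measure how stable the calls of all genes were.

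With a replicate block, 4292 genes were higher and 4149 lower. No pairing by number was seen: deviations of bystander and untreated libraries with the same number correlated at -0.42, 0.25, -0.18 and -0.22, and not every library correlated best with its own number. The highest correlations were those of bystanders 3 and 4 with untreated 1, at 0.44 and 0.48, the libraries with Stmn2. That shared difference could hide a pairing, so the check cannot exclude one. Ifnb1, at 0 to 6 reads per library, is limited by depth.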

Other observations

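The LPS pool was treated alike but collected without a scatter gate, and enters no comparison above. Ifit1 was at 1299 ± 41.8 CPM in the pool (SD, n = 4), beside 2093 ± 21.97 in bystanders and 1396 ± 40.0 in responders. Tlr4 was at 31.8 ± 2.195 CPM, Socs1 at 11.7 ± 1.48, Irf1 at 143 ± 4.65 and Rgs2 at 46.9 ± 1.37. All 5 pool means lay far nearer to responders than to bystanders, and those of Ifit1, Socs1, Irf1 and Rgs2 were below the means of both gated groups. Il1b was at 2825 ± 68.0 CPM in the pool and Nos2 at 1152 ± 46.6, between the gated groups. These differences were not tested.

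Further genes that the naming rule picked from the lists changed under both scalings. Gadd45b, a stress-induced growth arrest gene, rose 1.82-fold, and Lamp2, which encodes a lysosomal membrane protein, 1.68-fold. Bnip3, a mitophagy receptor gene, rose 1.52-fold, Edem1, whose protein acts in the disposal of misfolded glycoproteins, 1.38-fold and Keap1, which encodes the sensor that restrains NRF2, 1.48-fold. Scd2, a stearoyl-CoA desaturase gene, fell 1.57-fold and Hsp90aa1, a chaperone gene, 1.13-fold.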
